A study of Caenorhabditis elegans with 2 samples.

Results

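The regions described here are 303 peaks on the X chromosome of Caenorhabditis elegans from a chromatin immunoprecipitation and sequencing (ChIP-seq) map of TBX-2. They are the X entries of the list thresholded on the irreproducible discovery rate, which measures how well 2 replicates rank the same peaks, whose summit lies more than 200 bp from every tRNA, snoRNA and snRNA gene. The list holds 1631 peaks in all, of which 386 are on X, and 83 of these were left out for lying near such a gene. The contrast is the 1065 autosomal peaks that pass the same distance rule, of 1223 autosomal peaks, and the other 22 peaks are mitochondrial. The 303 peaks lie in 296 distinct intervals, because a few intervals hold several summits.

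The study has 1 group with 2 biological replicates. Both are whole hermaphrodites of strain OP159, with the genotype unc-119(ed3) III; wgIs159, which stably express TBX-2 with a GFP-FLAG tag at its C-terminus. The worms were collected as L3 larvae 48 h after synchronization as starved L1 larvae following bleaching. Chromatin was sheared by sonication and precipitated with an antibody to GFP, and no untagged or input sample was analysed here. Whole worms mix all tissues, so a peak cannot be assigned to a cell type, and the precipitated protein is the product of a transgene.

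TBX-2, a transcription factor of the T-box family, is required to make pharyngeal muscle, and T-box proteins bind DNA through a conserved domain that reads a GGTGTGA-like sequence. The X chromosome is also the substrate of dosage compensation. In XX hermaphrodites a complex built around a condensin, with SDC-2 and SDC-3 among the proteins that load it, binds X at recruitment elements and lowers X gene expression. A 12-base motif enriched on X, known as MEX, is a feature of many of these elements, and xol-1, an X-linked switch gene, keeps the complex off X in XO males.

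Windows reaching 100 bp to either side of each summit were searched for recurrent 12-base sequences, and 2 are shown because one was frequent in the strongest X peaks and the other in the peaks that follow them. TCGCGCAGGGAG was the best scoring sequence of the 25 strongest X windows set against autosomal windows, in a search added after the data were seen, where it was 1 of 3 tied sequences and had the highest count over all X windows, and its letters are those of the MEX motif. GAGACGCAGAGA was the best scoring sequence of all X windows set against windows 1000 bp away, and is called the shared sequence because autosomal windows hold it too. The lines below give the ce11 bases, from the RefSeq sequence of WBcel235, around each match, 5′ to 3′ on the strand named, with the 12 matched bases in capitals. The first 8 are the strongest X peaks that hold MEX with at most 1 mismatch.
Peak near W02H3.3, chrX:11094109-11094149, minus strand: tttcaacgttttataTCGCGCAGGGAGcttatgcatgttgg
Peak near cest-16, chrX:6296560-6296600, plus strand: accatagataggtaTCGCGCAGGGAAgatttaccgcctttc
Peak near nspc-17, chrX:14525884-14525924, minus strand: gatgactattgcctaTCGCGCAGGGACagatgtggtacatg
Peak near F20B6.9, chrX:4209276-4209316, plus strand: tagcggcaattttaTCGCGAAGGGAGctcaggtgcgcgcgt
Peak near Y41G9A.17, chrX:2997107-2997147, minus strand: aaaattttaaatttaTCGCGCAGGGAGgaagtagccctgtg
Peak near xol-1, chrX:8036419-8036459, plus strand: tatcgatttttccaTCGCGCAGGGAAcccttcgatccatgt
Peak near T27A8.7, chrX:16056634-16056674, minus strand: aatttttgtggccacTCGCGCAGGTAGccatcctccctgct
Peak near F22H10.2, chrX:16682156-16682196, minus strand: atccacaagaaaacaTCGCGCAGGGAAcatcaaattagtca
Of these 8, the ones near W02H3.3 and Y41G9A.17 match all 12 letters and the other 6 differ at 1 letter.

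The next 3 lines show 41 bases centred on the summit of the 3 X peaks with a signal above 1000 whose window held no match to MEX within 2 mismatches. Nothing is in capitals in them.
Peak near K02D3.1, chrX:13700851-13700891, plus strand: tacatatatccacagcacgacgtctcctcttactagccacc
Peak near ZK899.6, chrX:9465842-9465882, plus strand: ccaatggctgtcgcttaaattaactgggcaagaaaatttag
Peak near F19H6.5, chrX:12363177-12363217, plus strand: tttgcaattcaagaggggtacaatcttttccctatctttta
The last 6 are the strongest X peaks that hold the shared sequence, in capitals, with at most 1 mismatch.
Peak near C30E1.4, chrX:16929701-16929741, minus strand: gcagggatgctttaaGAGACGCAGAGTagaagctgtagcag
Peak near F17E5.2, chrX:12393945-12393985, minus strand: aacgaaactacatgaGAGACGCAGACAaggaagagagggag
Peak near ldb-1, chrX:11031477-11031517, minus strand: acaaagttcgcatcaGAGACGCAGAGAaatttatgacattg
Peak near hst-2, chrX:11207151-11207191, minus strand: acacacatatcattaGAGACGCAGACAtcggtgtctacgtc
Peak near daf-12, chrX:10637562-10637602, plus strand: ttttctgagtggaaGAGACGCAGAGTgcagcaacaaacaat
Peak near hda-4, chrX:16727088-16727128, minus strand: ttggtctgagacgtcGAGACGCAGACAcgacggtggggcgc

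X held more of the peaks than its length gives. It carried 303 of the 1368 nuclear peaks away from small-RNA genes, or 22.1% (exact 95% interval 19.97 to 24.4%), while it makes up 17.7% of the nuclear genome (two-sided exact binomial test, p = 2.40e-05). X was not the densest chromosome: it had 17.1 peaks per Mb, chromosome III had 17.3, and the other autosomes had between 9.75 and 14.9. Of the entries of the pooled list away from small-RNA genes, 4.67% passed the authors' threshold over all nuclear chromosomes. On X 303 of 5263 entries passed (5.76%), against 1065 of 24000 on the autosomes (4.44%), with an odds of passing 1.32 times as high (Fisher's exact test with Benjamini-Hochberg adjustment over 16 tests, adjusted p = 0.000493). The same test and adjustment were used for every adjusted p given here. Each summit counts as independent in them, although neighbours share chromatin and every peak comes from the pooled worms, so the p-values do not measure spread between replicates.

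A small set of X peaks stood far above the rest. The signal value, the authors' peak caller's own score of strength with a scale that is not given in the sources used here, exceeded 1000 at 16 X peaks and 3 autosomal peaks, and had a maximum of 2060.4 on X and 1583 on the autosomes. The medians were close: 141.7 on X (quartiles 110.9 and 232.5) and 137.1 on the autosomes (quartiles 106.9 and 203.0). Of the strongest 16 of the 1368 peaks 14 were on X, and of the strongest 100 there were 33. This is 10.9% of the X peaks, against 67 or 6.29% of the autosomal peaks (odds ratio 1.82, Fisher's exact test, adjusted p = 0.0275). Of the 25 strongest X peaks, 15 held the MEX motif within 2 mismatches, but the motif was chosen from these peaks. The excess was not past the threshold without replicate 2, where it was 4.19 percentage points (Fisher's exact test, adjusted p = 0.0674). The 3 autosomal peaks above 1000 were promoter peaks nearest rpl-3 and rpl-15, which encode ribosomal proteins, and Y17G9B.5.

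**Figure D1:**
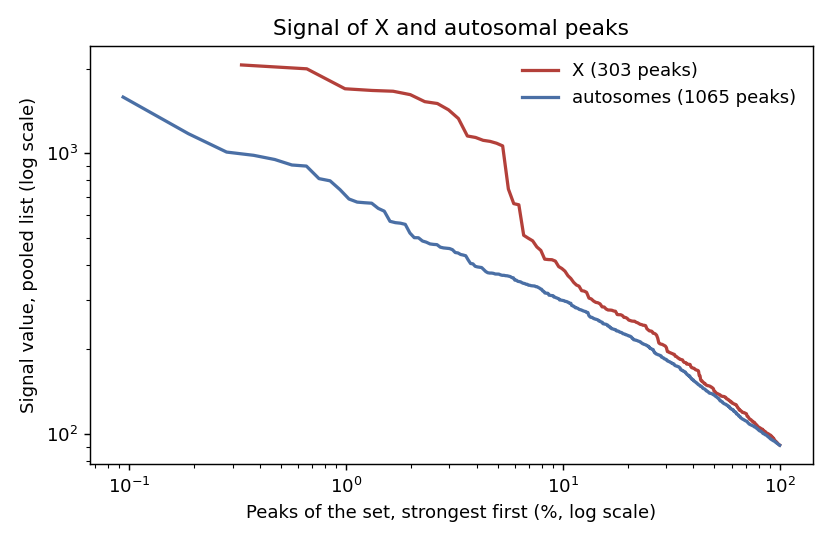
Signal value in the pooled list (log axis) against the percentage of each set's peaks, strongest first (log axis), for 303 X peaks and 1065 autosomal peaks. The X line stays above 1000 for its first 16 peaks and then drops to 745, and toward the weaker peaks both lines come close, with medians of 141.7 on X and 137.1 on the autosomes.

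The drop after the first 16 X peaks was a gap in the values: the lowest of them had a signal of 1061 and the next X peak 745. The strongest, at chrX:11093813-11094508, had 1082 in replicate 1, 986 in replicate 2 and 2060.4 with both pooled, with its summit between genes and 3973 bp from W02H3.3's start. At chrX:6296214-6296923 replicate 1 had a signal of 1026, replicate 2 of 979 and the pool of 1996, and the summit lay inside an intron of mom-1, which encodes a Porcupine protein needed to secrete Wnt ligands. Both replicates ranked all 16 peaks high, the worst rank being 33 in replicate 1 and 34 in replicate 2, and their signals ran from 548 to 1082 in replicate 1 and from 491 to 986 in replicate 2.

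The peak upstream of xol-1 was among them. It lies at chrX:8036078-8036901, 4882 bp upstream of the nearest xol-1 transcript start, with a signal of 745 in replicate 1, 766 in replicate 2 and 1502 for the pool. It is also the peak nearest to the 200 bp limit of the selection on X, at 254 bp from a tRNA gene. The next nearest outside, at 535 bp from a snoRNA gene, had a signal of 243.5, and the farthest of the 83 peaks left out, at 121 bp from a tRNA gene, had 482.6. Of the 83, 46 summits lay within the small-RNA gene itself, their median signal was 155.8 and their highest 482.6.

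The 16 peaks above 1000 were spread along X. They fell in each of 10 equal parts of the chromosome, with summits from 806685 to 16682098 and a median gap of 1212 kb between neighbours. Of these, 11 were intergenic, 2 intronic, 2 in promoter windows and 1 in a coding exon, that of pks-1, which encodes a polyketide synthase. Promoter windows run from 1000 bp upstream to 200 bp downstream of a coding transcript start. The other 287 X peaks had 153 promoter summits (53.3%) and 92 intergenic summits (32.1%). The strong peaks lay at a median of 2537.5 bp from the nearest coding start, against 769 bp for the other 287, and their median width was 631 bp, with 420 bp over all 303.

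The 2 promoter peaks of the set belong to nspc-17 and ins-39. At nspc-17, of a family of nematode-specific peptides, the pooled signal was 1695, with 848 in replicate 1 and 853 in replicate 2, 723 bp upstream of the start. At ins-39, which encodes an insulin-related peptide, it was 1101, with 548 and 561 in replicates 1 and 2, 648 bp upstream. The other members of the 16 were nearest F20B6.9 (1671), K02D3.1 (1661), ZK899.6 (1615), Y41G9A.17 (1525), T27A8.7 (1426), F55G7.5 (1327.7), F22H10.2 (1150.5), C41A3.2 (1137, the peak in pks-1), F19H6.5 (1110.4), gtr-1 (1084) and fbxb-58 (1061). A nearest gene is a position and was not tested as a target.

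Most of these peaks held MEX. With at most 1 mismatch, on either strand, it was in 14 of 303 X windows (4.62%) and in 0 of 1065 autosomal windows, whose exact 95% interval reaches 0.346%. No match was found in the 606 X windows or the 2130 autosomal windows placed 1000 bp away. Among the 16 strongest X peaks, 10 held it within 1 mismatch and 13 within 2, and among the 25 strongest 11 and 15. With 2 mismatches allowed it was in 23 X windows (7.59%) and 12 autosomal windows (1.13%). These shares chose the sequence and are a description with no test. Whether the same sites give peaks in worms without the tag was not tested, since no control sample was analysed.

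Matches were sought only within 100 bp of the summits. The 14 windows hold 14 distinct matches in 13 intervals, since the interval chrX:2996740-2997481 near Y41G9A.17 has 2 summits, with signals of 1525 and 380, and an exact match at each. Their distance from the summit had a median of 29 bp and a maximum of 84 bp, and 10 of 14 lay within 50 bp. The window bounded these distances, and whether matches lie closer to the summit than elsewhere in it was not tested. Peaks that hold MEX within 2 mismatches had a median signal of 1084 (range 96.4 to 2060.4), against 137.1 (91.2 to 1661) for those that do not. MEX was chosen from the strongest X peaks, so this difference in signal was set by the choice and was not tested. Only 3 of the 23 peaks with MEX were in promoter windows (13.0%), against 54.3% of the rest. Of the 25 strongest X peaks, from which MEX was chosen, 20% were promoter peaks. The difference in promoter share therefore also carries that choice, and it was not tested. The peaks near K02D3.1, ZK899.6 and F19H6.5 had signals above 1000 without MEX, and the peak near ttr-37, which holds it with 1 mismatch, had 96.4.

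Across the genome, MEX with at most 1 mismatch occurs 32 times on X (1.81 per Mb) and 37 times on the autosomes (0.448 per Mb). Of the X occurrences, 18 lie under a thresholded peak, those near small-RNA genes included, and 23 under an entry of the pooled list. Of the autosomal occurrences, 0 lie under a thresholded peak and 3 under a pooled entry. MEX was chosen in X peaks against autosomal peaks, so the counts under peaks are a description with no test. The exact 12 letters occur 3 times on X, all under thresholded peaks, and 0 times on the autosomes.

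**Figure D2:**
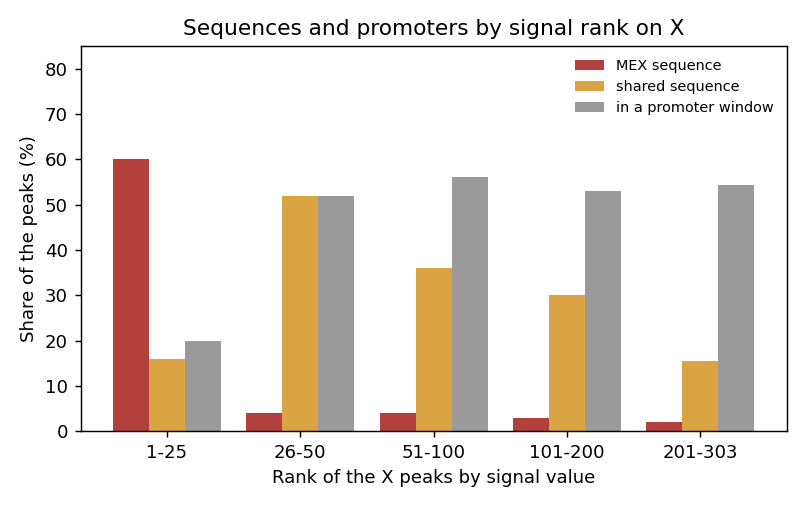
Percentage of X peaks (bars, linear axis from 0) that hold the MEX sequence or the shared sequence within 2 mismatches, or whose summit is in a promoter window, in 5 bins of rank by signal. MEX is in 60% of the ranks 1 to 25 and in at most 4% of each later bin, while promoter summits make up 20% of the first bin and 52 to 56% of the others. MEX was chosen from the ranks 1 to 25, so its high share there was set by the choice.

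The shared sequence was less frequent in the strongest and in the weakest X peaks than in those ranked between. With at most 2 mismatches it was in 81 of 303 X windows (26.7%) and in 335 of 1065 autosomal windows (31.5%), against 2.15% of the X windows and 2.91% of the autosomal windows 1000 bp away. The sequence was chosen for its difference between the X windows and those 1000 bp away, so that contrast on X was set by the choice. It was in 2 of the 16 strongest X peaks and 4 of the 25 strongest, in 52% of the ranks 26 to 50 and in 15.5% of the 103 weakest. On X it was in 30.3% of promoter windows and 22.3% of intergenic ones, while on the autosomes it was in 26.1% of promoter windows and 45.3% of intergenic ones. X peaks with it had a median signal of 169.1, and those without it 135.8. The median G and C content was 47.8% in X windows and 44.8% in autosomal windows, but 41.3% in the 25 strongest X windows and 48.8% in the other X windows. The part of base composition in these shares was not tested.

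Short known motifs, read on both strands, gave few differences between X and the autosomes. The T-box site GGTGTGA was in 4 X windows (1.32%) and 10 autosomal windows (0.939%), with an adjusted p of 0.600 by Fisher's exact test, and its share in windows 1000 bp away was 0.990% on X and 1.36% on the autosomes. The core GGTGTG, which GGTGTGA contains, was in 9.90% of X windows and 7.04% of autosomal windows (adjusted p = 0.223, Fisher's exact test), with 6.27% and 4.51% in windows 1000 bp away. GAGAGAGA was in 29 X windows (9.57%) and 168 autosomal windows (15.8%), at odds 0.565 times as high (Fisher's exact test, adjusted p = 0.0275), and in windows 1000 bp away it was in 2.31% on X and 2.11% on the autosomes. This call was lost with either replicate alone, where the difference was -5.13 and -4.96 percentage points. CACGTG, the E-box, was in 7.59% of X windows and 9.30% of autosomal windows, TGATAA in 9.24% and 10.7%, and TTAGGC in 3.96% and 4.13%, with adjusted p-values of 0.600, 0.600 and 1 by Fisher's exact test. The windows 1000 bp away held CACGTG at 3.30% on X and 4.04% on the autosomes, and TGATAA at 21.5% and 17.7%. A match is a description of letters and does not show that a factor binds there.

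A larger share of X peaks lay between genes. Intergenic summits made up 103 of 303 X peaks (34.0%) and 247 of 1065 autosomal peaks (23.2%), at odds 1.71 times as high (Fisher's exact test, adjusted p = 0.00130). Single autosomes ran from 17.4% on I to 29.7% on IV. Promoter summits made up 155 (51.2%) and 629 (59.1%), at odds 0.726 times as high (Fisher's exact test, adjusted p = 0.0398). The promoter call was lost without replicate 2 (a difference of -4.73 percentage points, adjusted p = 0.269, Fisher's exact test). X has fewer coding genes, 154 per Mb against 209 on the autosomes, and promoter windows cover 21.8% of its length against 27.2%. The part of gene density in these shares was not tested. Among pooled entries below the threshold, promoter summits made up 26.5% on X and 31.0% on the autosomes, and intergenic summits 27.04% and 19.0%. Intron summits made up 13.2% of X peaks and 14.1% of autosomal peaks (adjusted p = 0.830), and coding exons 4 X and 28 autosomal peaks (adjusted p = 0.447), by Fisher's exact test.

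**Figure D3:**
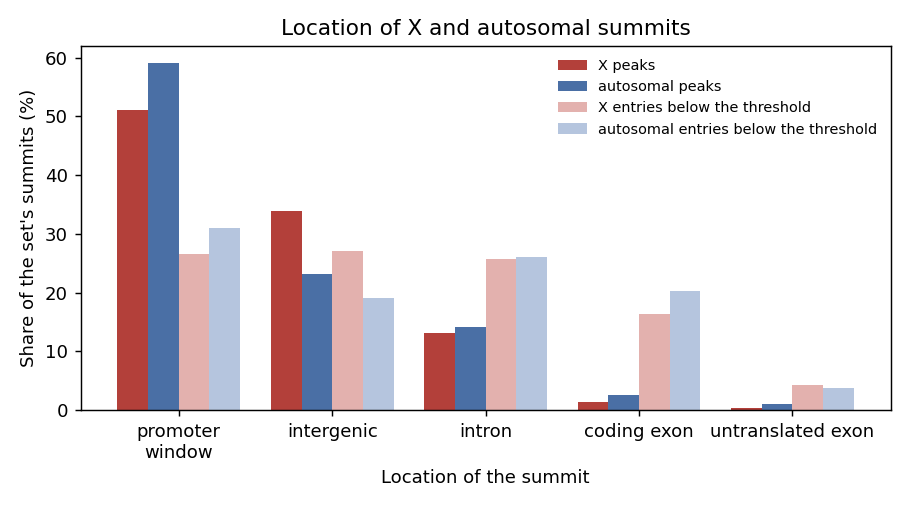
Percentage of peaks (bars, linear axis from 0) whose summit is in each location class, for the X and autosomal peaks and for the pooled entries below the threshold. Intergenic summits make up 34.0% of X peaks and 23.2% of autosomal peaks, and promoter summits 51.2% and 59.1%.

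X peaks lay farther from coding starts. The distance to the nearest start had a median of 878 bp on X (quartiles 261 and 2535.5) and 448 bp on the autosomes. It exceeded 5000 bp at 24 X peaks (7.92%) and 47 autosomal peaks (4.41%). These differences in distance, and the part of gene density in them, were not tested. The share of summits upstream of the nearest start was 72.3% on X and 75.9% on the autosomes (Fisher's exact test, adjusted p = 0.359). Promoter summits within the window of several coding genes, as happens between divergent genes, were 11 of 155 on X (7.10%) and 219 of 629 on the autosomes (34.8%), a difference that was not tested. Of the 103 intergenic X peaks, 68 (66.0%) had no annotated start of any kind in the window, and 32 (31.1%) had that of a noncoding RNA. The autosomal shares were near these, with 162 of 247 (65.6%) and 65 of 247 (26.3%), and were not tested against them.

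A smaller share of X peaks than of autosomal peaks lay in the middle of their chromosome. The central 50% by length held 136 X peaks (44.9%, exact 95% interval 39.2 to 50.7%) and 674 autosomal peaks (63.3%, 60.3 to 66.2%), at odds 0.472 times as high (Fisher's exact test, adjusted p = 2.38e-07). Single autosomes ran from 55.2% on IV to 78.4% on V. Below the threshold the central share was 49.8% on X and 54.3% on the autosomes. Of 10 equal parts counted from the left end, part 6 held the fewest X peaks (17, or 5.61%) and part 9 the most (49, or 16.2%), while autosomal peaks were densest in part 7, which held 15.02%. The longest stretch of X without a peak ran from 3127864 to 3803523. Neighbouring peaks were closer on X, at a median of 31.1 kb against 38.9 kb.

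**Figure D4:**
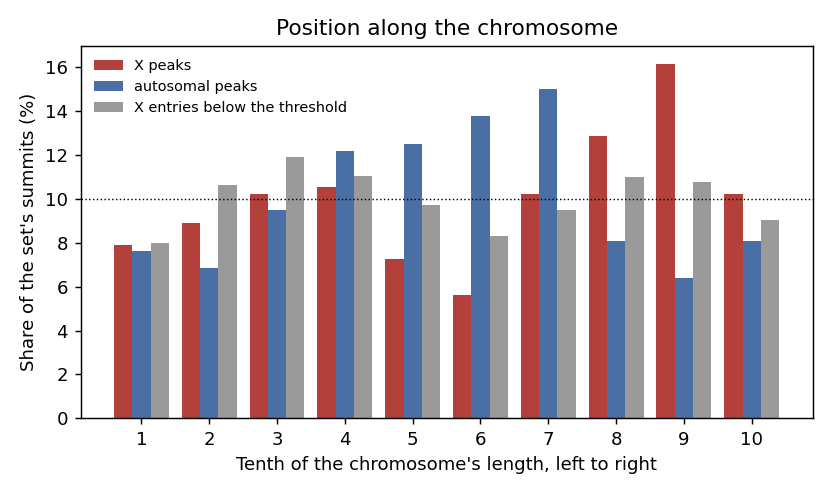
Percentage of X peaks, autosomal peaks and X entries below the threshold in each of 10 equal parts of the chromosome from the left end (linear axis from 0), over all autosomes jointly; the dotted line marks an even 10%. The X peaks are lowest in part 6 at 5.61% and highest in part 9 at 16.2%, and the autosomal peaks are highest in part 7.

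Several X genes had clusters of summits. When peaks within 10 kb were joined, 157 of 210 clusters held 1 peak. The largest had 7 peaks between 6736644 and 6750298 around mdl-1, which encodes a Mad-like bHLH protein, with signals of 107.9 to 322.4. Clusters of 5 peaks lay at lin-14, a heterochronic regulator of larval timing (114.8 to 168.9), at mxl-3, which encodes a Max-like bHLH protein, at kin-20, which encodes a casein kinase 1 homolog, and near ZK470.2. The 303 peaks had 241 distinct nearest coding genes, of which 199 were nearest to 1 peak, and mdl-1 and lin-14 were nearest to 5 each. At daf-12, a nuclear hormone receptor of larval development whose nearest peak holds the shared sequence shown above, the signal was 294.0.

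The strongest supported promoter peaks on X lay at genes of several functions. Over all X coding genes 158 of 2731, or 5.79%, had a summit in the promoter window, against 4.96% of all 19973 nuclear coding genes. After nspc-17 and ins-39 came serp-1.1, where the pooled signal was 661, with 375 in replicate 1 and 285 in replicate 2. At puf-9, which encodes a Pumilio-family RNA-binding protein, it was 497, with 278 and 221 in replicates 1 and 2, and the summit was 282 bp upstream. At epn-1, which encodes an epsin of endocytosis, it was 419, with 237 and 182. The others were ftt-2, a 14-3-3 protein (412), ain-1, a component of the microRNA silencing complex (388), C14A11.9 (357), F17E5.2 (346), epg-7, an autophagy gene (339), F09C8.2 (324), hst-2, a heparan sulfate sulfotransferase (304), mans-3 (297), rpl-11.2, a ribosomal protein gene (293), and zfp-3 (290.3). All 15 summits lay upstream of the start.

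The remaining peaks of the strongest 25, nearest their coding genes, had signals of 745 at F56C3.1, 654 at T24D8.6, 509.7 at col-185, which encodes a collagen, 487 at C30E1.4, 463 at hlh-29, which encodes a bHLH protein, and 450.0 at F43E12.1. A peak in an intron of F09A5.3, beside the microRNA genes mir-54, mir-55 and mir-56, had 394, with 245 in replicate 1 and 153 in replicate 2. Just above the threshold, signals were 91.95 in F09A5.3, 91.8 at dnj-7, 91.6 at gbb-1, 91.3 at scd-1 and 91.2 at got-2.2. Just below it they were 90.9 at eor-2, 90.7 at F09A5.3, 90.69 at R07E3.4, 90.3 at scd-1 and 90.2 at suca-1.

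Genes of dosage compensation and sex determination were listed to place the peaks beside them. Of the 10 genes listed for the dosage compensation complex, 2 of them on X, 0 had a summit in the promoter window. Of 8 listed X-signal and sex-switch genes, sex-2 was not matched in the annotation, and 0 of the 7 matched genes (4 on X) had one. With 4.96% of all nuclear coding genes and 5.79% of X coding genes having such a summit, these counts are near the background and are no result about the lists. Within 5000 bp of the gene, a summit was found at 15.2% of all nuclear coding genes and 19.1% of X coding genes. Of the complex, dpy-21 (211) and dpy-28 (982), both autosomal, had such a summit, and the peak of dpy-28 is nearer to tasp-1. Of the other list xol-1 (1502), tra-1 (107) and tra-2 (273) had one. The summits counted for dpy-21 and tra-2 lie in promoter windows of other genes, that of tra-2 3823 bp downstream of the gene. The summit in tra-1 was not supported by both replicates. Among 20 developmental regulators, 19 of them on X, lin-14 had a promoter summit, with a signal of 135, 189 bp upstream, and lin-15A and lin-15B (one peak of 245) and ceh-14 (112) had one within 5000 bp.

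Most X peaks were found in both replicates. A summit within 100 bp in the strongest 1631 entries of both replicates was present at 227 of 303 X peaks (74.9%) and 732 of 1065 autosomal peaks (68.7%), a difference that missed the threshold (Fisher's exact test, adjusted p = 0.0898). Of the other X peaks 34 had it in replicate 1 alone, 39 in replicate 2 alone and 3 in neither. All 25 strongest X peaks had both, and 36 of the 103 weakest did. The ratio of the replicate 1 signal to that of replicate 2 had a median of 1.16 on X and 1.20 on the autosomes, and for the 25 strongest X peaks it ran from 0.785 to 1.31. Replicate 1 was higher at 208 of 302 X peaks with a match in both. Since the pooled list that chose the peaks contains both replicates, finding a peak in one of them is no independent check.

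**Figure D5:**
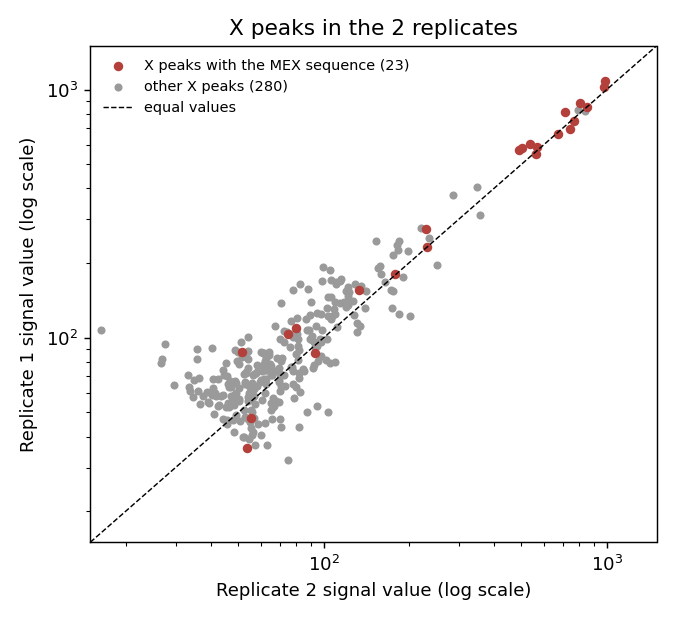
Signal value of each X peak in replicate 1 against replicate 2 (both axes logarithmic), with the 23 peaks that hold the MEX sequence within 2 mismatches marked. Of the 302 peaks with an entry in both replicates, all are shown except the one near tps-1 at chrX:17479757-17480349. Its signal of 10.2 in replicate 2, against 65.2 in replicate 1, lies below the axis. Most points lie near the line of equal signal, and the strongest X peaks are strong in both replicates.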

How the data were processed

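ChIP-seq peak lists of 2 biological replicates were used. Per the deposited file listing, the authors ranked peaks together with background in each replicate and in the pooled replicates, and thresholded the pool on the irreproducible discovery rate. For the aligner, peak caller and settings, the sources used here give none. The deposited signal value is the peak caller's own, and the deposited −log10 q value had 1 distinct value in the thresholded list, so peaks were ranked by signal. The thresholded list holds exactly the strongest 1631 of 30000 pooled entries. The lists carry no read numbers, so depth is unknown, and intervals reflect only how many peaks there are.

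Positions are on ce11, read with the WBcel235 genome and Ensembl release 115, using Python 3.11.15, NumPy 2.4.6, SciPy 1.17.1 and pandas 2.3.3. Shares were compared between X and autosomes by the two-sided Fisher's exact test, with Benjamini-Hochberg adjustment over 16 tests, at a threshold of 0.05. The RefSeq symbol was taken for 2761 genes of any biotype without one in Ensembl. Scripts were tested on simulated data. Named genes were the nearest coding genes of the 25 strongest X peaks, the 15 X genes with the strongest promoter summits supported by both replicates, the 5 peaks on either side of the threshold, and list members with a summit within 5000 bp. Other genes named beside sequences, clusters or microRNAs were chosen after their values were seen. The members, lists and tests were chosen with earlier results of these data known. Alternatives changed the distance to small-RNA genes, the promoter window, the sequence window, the mismatches, the replicates and the list's length.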

Additional observations from a re-analysis of the deposited data

How the results depend on the processing

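Differences are X minus autosomes in percentage points, with adjusted p-values from Fisher's exact test. The excess of X peaks, its intergenic share and its low central share kept their direction and call in each alternative run. Of 166 alternatives over all results 136 left the result as it was, a count that includes differences that were not past the threshold and stayed so. By this exact test, the promoter difference missed the threshold at a distance of 1000 bp from small-RNA genes (-7.11, p = 0.0879) and with genes of all biotypes (-4.65, p = 0.272), and ran from -8.80 to -4.73 without a replicate. The difference in the strongest 100, by the exact test, missed it within the strongest 50% of the list (8.10, p = 0.0652) and with the strongest 200 (5.38, p = 0.0569), and ran from 4.19 to 5.26 without a replicate. The GAGAGAGA difference missed it within the strongest 50% (-3.04), with windows reaching 200 bp from the summit (-4.63) and with single replicates (-5.13 to -4.96). Support in both replicates passed it in the exact test when no distance rule was used, with peaks at small-RNA genes kept (7.30, p = 0.0160). When support was asked of 1 replicate without regard to the other, the difference was 6.66 for replicate 2 and 1.16 for replicate 1. In the exact test, the former passed the threshold and the latter did not. GGTGTG passed it in the exact test with 200 bp (6.66, p = 0.0221) and without replicate 1 (p = 0.0479), and ran from 3.26 to 4.46 without a replicate. Differences that were never past the threshold changed sign: TTAGGC within the strongest 50% (1.48) and with windows reaching 50 bp (0.572) and 200 bp (2.39), GGTGTGA with 200 bp (-0.131), and introns with a promoter window of 2000 bp (0.986). Without a replicate these ran from -0.657 to 0.320 for TTAGGC, from -0.204 to 0.342 for GGTGTGA and from -0.0377 to 0.566 for TGATAA. The share of X windows with the shared sequence was 34.2% in the strongest 50%, 16.2% with 50 bp, 33.0% with 200 bp, 8.91% with 1 mismatch and 52.8% with 3. These shares keep the sequence fixed. When the search was repeated, it chose the same sequence with 50 bp only. With 1 mismatch, 3 mismatches and 200 bp it chose others, which differ from the shared sequence at 9, 3 and 2 letters. The cause of these shifts was not tested. Leaving out the 23 X peaks with MEX was added after the data were seen and gave -0.369 for the strongest 100, -4.78 for promoters and -5.77 for GAGAGAGA, none past the threshold. MEX was chosen from the strongest X peaks and autosomal peaks with it stayed in, so these values are no check of the differences. No paired analysis was possible because there is 1 group. The unknown depth, and a control sample not analysed here, limit what a weak peak can show.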
